A study of Mus musculus with 9 samples.

Results

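The mRNA levels of 10 transcription factors of the striatal lineage were measured in 3 mouse striatal cell lines. The factors are Gsx2, Dlx2, Meis2, Foxp1, Foxp2, Bcl11b, Zfp503, Isl1, Ebf1 and Six3, chosen by gene symbol, and all 10 have a row among the 36410 genes of the deposited count table. The study uses immortalized lines made from embryos of knock-in mice in which exon 1 of huntingtin carries a stretch of CAG codons for glutamine. The control line STHdhQ7/Q7 carries 7 glutamine repeats on both alleles. Repeats number 7 and 111 on the alleles of the HD-het line, STHdhQ7/Q111, and 111 on both alleles of the HD-homo line, STHdhQ111/Q111. All 3 lines are labelled as striatal cells of strain C57/BL6, no treatment is given, and poly(A) RNA was sequenced from 3 replicate libraries of each line, 9 in all. Each genotype is represented by 1 line, so effects of the genotype cannot be told apart from those of the line, and since nothing says that the libraries of a line came from separate cultures, p values measure only the spread between them, which may be technical. The question put to these libraries was how the level of each factor differs between the lines.

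Most neurons of the striatum are medium spiny projection neurons, which arise in the embryo from the lateral ganglionic eminence. Gsx2 and Dlx2 are homeodomain factors of the dividing progenitors there, and Meis2, Foxp1, Foxp2, Bcl11b and Zfp503 are found in the young projection neurons that leave them. Isl1 and Ebf1 act in neurons of the direct pathway, which projects to the substantia nigra and carries the dopamine receptor Drd1, and Six3 acts in neurons of the indirect pathway, which carries Drd2.

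Total counts per library ran from 29507665 to 41197931, so that 3 counts, the number a library had to exceed for a gene to be taken as found in it, correspond to between 0.0710 and 0.101 counts per megaread (CPM). This floor covers counting error only. CPM are normalized by edgeR's TMM factors, and replicate libraries of a line differed by more than counting noise in all 9 pairs. Huntingtin mRNA itself lay between 93.0 and 104 CPM in control cells, between 61.1 and 64.0 in HD-het cells and between 19.2 and 21.7 in HD-homo cells, which does not check the repeat length. The label of striatal neurons was compared with marker genes. Drd1, Pdyn and Oprm1, which mature projection neurons carry, had 0 reads in all 9 libraries, Drd2 had 1 read in all, and the 16 listed markers of projection neurons summed to between 4.50 and 8.05 CPM per library. Of the 16, 7 were over the floor in at least 1 library of control, 8 of HD-het and 7 of HD-homo cells. Pde10a had means of 2.07, 5.02 and 1.56 CPM and Penk of 1.28, 0.470 and 2.42 CPM in the lines in that order. Ppp1r1b, the gene of DARPP-32, had 2, 3 and 2 counts in control, 1, 1 and 1 in HD-het and 11, 17 and 8 in HD-homo libraries. Line means of Adcy5, Adora2a and Rgs9 lay between 0.0884 and 0.561 CPM. The lines are therefore called by their names here, with no statement on the maturity of the cells.

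Sequences just upstream of the start are shown for 4 factors, Dlx2 and Zfp503, whose mRNA was abundant and differed between the lines, and Isl1 and Gsx2, which had 0 or 1 read in all libraries together. Each is the run of 250 bases before a RefSeq start on GRCm38.p6, read on the strand of the gene, 5′ to 3′, and the capitals mark CpG dinucleotides.
Dlx2, chr2:71546755-71547004, minus strand: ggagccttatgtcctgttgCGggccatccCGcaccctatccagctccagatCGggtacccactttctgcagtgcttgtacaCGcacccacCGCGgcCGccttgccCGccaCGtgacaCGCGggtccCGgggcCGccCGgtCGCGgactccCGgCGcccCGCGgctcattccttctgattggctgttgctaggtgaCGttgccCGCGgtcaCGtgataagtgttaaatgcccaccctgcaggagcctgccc
Zfp503, chr14:21989602-21989851, minus strand: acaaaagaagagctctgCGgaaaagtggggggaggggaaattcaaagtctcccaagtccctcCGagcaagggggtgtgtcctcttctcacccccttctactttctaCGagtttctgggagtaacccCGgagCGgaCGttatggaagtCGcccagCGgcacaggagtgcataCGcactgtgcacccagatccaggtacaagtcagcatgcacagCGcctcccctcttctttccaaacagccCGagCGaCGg
Isl1, chr13:116309689-116309938, minus strand: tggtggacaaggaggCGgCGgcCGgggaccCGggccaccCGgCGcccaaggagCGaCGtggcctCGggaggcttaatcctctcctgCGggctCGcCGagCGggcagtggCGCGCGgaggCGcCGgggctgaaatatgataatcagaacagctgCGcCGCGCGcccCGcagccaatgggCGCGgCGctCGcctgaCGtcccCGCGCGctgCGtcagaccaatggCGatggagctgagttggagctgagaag
Gsx2, chr5:75075351-75075600, plus strand: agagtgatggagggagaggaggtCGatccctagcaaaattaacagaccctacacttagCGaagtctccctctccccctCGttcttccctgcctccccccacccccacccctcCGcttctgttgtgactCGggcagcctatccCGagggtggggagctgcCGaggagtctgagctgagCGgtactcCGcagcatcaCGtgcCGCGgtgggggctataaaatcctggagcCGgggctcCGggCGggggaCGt
The Dlx2 window holds 24 CpG and the Zfp503 window 13, against 33 in the window of Isl1 and 16 in that of Gsx2. The median over 32851 windows of the same length is 6, and all 4 windows lie above it, those of the abundant and of the undetected genes alike. Of the 10 factors, 9 matched the table of starts, with 12 windows in all. Each window was searched on both strands for TAATTA, a core of homeodomain sites, TGACAG, a core of MEIS sites, TGTTTAC, a core of forkhead sites, and CCCNNGGG, a core of EBF sites, and no matches overlapped. TAATTA occurred in 1 window, the second of Foxp1, and in 4.84% of all windows. TGACAG occurred in that window and in the window of Six3, and in 15.9% of all windows. TGTTTAC occurred in 0 of the 12 and in 3.17% of all, and CCCNNGGG in the first window of Foxp1 and those of Bcl11b and Gsx2, and in 11.8% of all. A match is a description of the letters and was not tested as a binding site.

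The factors fell into abundant, scarce and undetected ones. Foxp1, Meis2, Ebf1, Zfp503 and Dlx2 had at least 10 counts in each of the 9 libraries and lay between 3.96 CPM, for Dlx2 in 1 HD-het library, and 179 CPM, for Foxp1 in 1 HD-homo library. Foxp2, Bcl11b and Six3 stayed under 1 CPM in all libraries. Isl1 had 0 reads everywhere, and Gsx2 had a single read in HD-homo replicate 1. A factor was taken as under the floor in a line where all 3 libraries had 3 counts or fewer. By this rule 2 of the 10 were under the floor in control cells and 2 in HD-het cells, Isl1 and Gsx2 in both, and 4 in HD-homo cells, Isl1, Gsx2, Bcl11b and Six3.

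**Figure D1:**
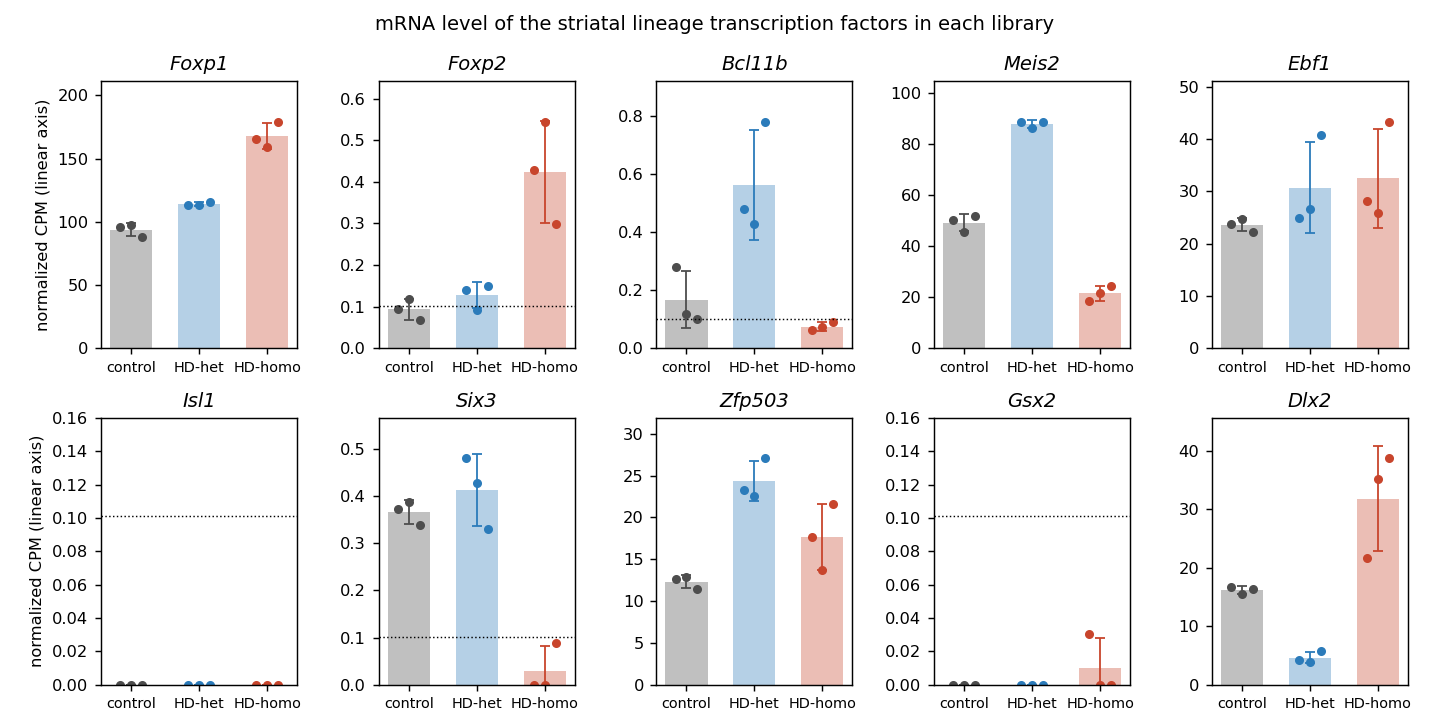
Normalized CPM of the 10 factors in control, HD-het and HD-homo libraries on linear axes, with a panel for each gene. Points are libraries, bars are line means and error bars SD (n = 3), and the dotted line, drawn where the axis is short, marks the highest floor of 0.101 CPM. Foxp1 is highest in HD-homo cells, Meis2 and Zfp503 in HD-het cells, Dlx2 is lowest in HD-het cells, and Isl1 lies at 0 throughout.

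edgeR's filter on low counts passed 13508 genes, among them 8 of the 10 factors. Isl1 and Gsx2 did not pass, and their counts stand without a test. Differences were tested by the quasi-likelihood method of edgeR, and p values adjusted after Benjamini and Hochberg over all tested genes, with an adjusted p under 0.05 as the threshold. Foxp2 passed the filter through its HD-homo libraries, Bcl11b through HD-het and Six3 through control and HD-het, so that a difference was built into their entry. The p values of these genes, and the counts that follow, are therefore a description. In HD-het versus control cells 4 factors were called higher and 1 lower, while 65.1% of all tested genes were called, 33.8% higher and 31.4% lower. In HD-homo versus control cells 4 were called higher and 2 lower, beside 58.6% of all genes, 29.6% higher and 28.9% lower. In HD-homo versus HD-het cells 3 were called higher and 4 lower, beside 71.6% of all genes, 36% higher and 35.6% lower. The libraries of the lines compared did not overlap for 6, 8 and 7 of the 8 factors in these 3 comparisons, and for 74%, 65.3% and 72.8% of all tested genes. Since most tested genes pass, the share of factors called says nothing particular about them, and the size and direction of each difference is what follows. Among the 5 abundant factors, Foxp1, Meis2, Zfp503 and Dlx2 were called in all 3 comparisons and Ebf1 in none. In such bulk RNA, fewer cells with a given mRNA and less of that mRNA per cell cannot be told apart.

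Of the progenitor factors, Gsx2 (chr5:75075601-75077893, plus strand, GRCm38, positions of genes from GENCODE) specifies the progenitors of the lateral ganglionic eminence. It had 0 reads in every control and HD-het library, and 1, 0 and 0 in HD-homo replicates 1 to 3. With 3 counts as the limit that 0 reads allow, a level of up to 0.101 CPM was not detectable.

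Dlx2 (chr2:71543408-71546754, minus strand) drives the differentiation of GABAergic neurons from the same progenitors and showed the widest range of the abundant factors as a fold between its lowest and highest library. Its level was 16.7, 15.5 and 16.4 CPM in control replicates 1 to 3. In HD-het cells it was 4.20, 3.96 and 5.81 CPM, and in HD-homo cells 21.6, 35.1 and 38.7 CPM. The HD-het libraries lay below all others and the HD-homo libraries above all others, with no overlap. Dlx2 was 3.47-fold lower in HD-het cells relative to control (log2 fold change -1.80 ± 0.21, SE, edgeR adjusted p = 2.23e-05). It was 1.97-fold higher in HD-homo cells relative to control (0.98 ± 0.19, edgeR adjusted p = 0.00103) and 6.83-fold higher than in HD-het cells (2.77 ± 0.21, edgeR adjusted p = 4.24e-07). The 2 HD lines thus lay on opposite sides of the control line. HD-homo replicate 1 was the lowest of its line, and the spread within that line (SD 8.99 CPM) was wider than in control (0.635 CPM) or HD-het cells (1.00 CPM).

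Meis2 (chr2:115863064-116065839, minus strand), a TALE homeodomain protein that marks the striatal primordium, also differed in opposite directions. Control libraries had 50.3, 45.3 and 51.9 CPM. HD-het libraries had 88.8, 86.1 and 88.8 CPM, and HD-homo libraries 18.6, 21.5 and 24.2 CPM. The 3 lines did not overlap, with HD-het the highest and HD-homo the lowest. Meis2 was 1.79-fold higher in HD-het cells relative to control (log2 fold change 0.84 ± 0.09, SE, edgeR adjusted p = 8.28e-06). It was 2.29-fold lower in HD-homo cells relative to control (-1.20 ± 0.09, edgeR adjusted p = 6.28e-07) and 4.10-fold lower than in HD-het cells (-2.03 ± 0.09, edgeR adjusted p = 6.15e-09). Set beside Dlx2, the order of the lines was turned around.

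Foxp1 (chr6:98925338-99522721, minus strand), a forkhead repressor needed for projection neuron differentiation, differed by stepwise amounts between the lines. It was at 95.7, 97.7 and 87.9 CPM in control, 113, 113 and 116 CPM in HD-het and 165, 159 and 179 CPM in HD-homo libraries. The lines stood in the order control, HD-het, HD-homo without overlap. Foxp1 was 1.22-fold higher in HD-het cells relative to control (log2 fold change 0.28 ± 0.06, SE, edgeR adjusted p = 0.00196). It was 1.79-fold higher in HD-homo cells relative to control (0.84 ± 0.06, edgeR adjusted p = 5.14e-07) and 1.47-fold higher than in HD-het cells (0.56 ± 0.06, edgeR adjusted p = 9.01e-06). Exons of Foxp1 share 300 bases with Gm20696 and 135 with the miRNA gene Gm49348 on the same strand, which is 2.18% and 0.982% of its exon bases. Neither has a row in the count table, and how reads there were assigned was not tested.

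Foxp2 (chr6:14901349-15441977, plus strand), the related repressor found in projection neurons and known for its part in vocal learning, was scarce. Its counts were 3, 4 and 2 in control, 5, 3 and 5 in HD-het and 14, 23 and 10 in HD-homo libraries. All HD-homo libraries lay above all others, while control and HD-het libraries overlapped. The means were 0.0933 ± 0.0257, 0.127 ± 0.0314 and 0.424 ± 0.123 CPM (SD, n = 3). Foxp2 was 4.54-fold higher in HD-homo cells relative to control (log2 fold change 2.15 ± 0.39, SE) and 3.33-fold higher than in HD-het cells (1.72 ± 0.36). Since Foxp2 passed the filter only through the HD-homo libraries, no p value is given for these 2 differences. The difference of HD-het from control was not resolved at this depth, with a 95% interval from -0.68 to 1.53 on the log2 scale (edgeR adjusted p = 0.54).

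Zfp503 (chr14:21983959-21989601, minus strand), also called Nolz1, is a zinc finger repressor of the developing striatum. It was at 12.7, 12.9 and 11.5 CPM in control libraries. Values of 23.3, 22.6 and 27.0 CPM were found in HD-het cells and of 17.7, 13.7 and 21.7 CPM in HD-homo cells. Control libraries were below all others, and HD-homo libraries below all HD-het ones. Zfp503 was 1.97-fold higher in HD-het cells relative to control (log2 fold change 0.98 ± 0.15, SE, edgeR adjusted p = 0.000129) and 1.43-fold higher in HD-homo cells relative to control (0.51 ± 0.15, edgeR adjusted p = 0.0112). It was 1.38-fold lower in HD-homo cells relative to HD-het (-0.46 ± 0.14, edgeR adjusted p = 0.0121). Both comparisons with HD-homo cells depended in size on single libraries. Without HD-homo replicate 3 the difference from control was 0.33 (edgeR adjusted p = 0.0392), and without HD-homo replicate 2 the difference from HD-het was -0.31 (edgeR adjusted p = 0.0293).

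Bcl11b (chr12:107910403-108003602, minus strand), also called CTIP2, is a zinc finger protein that defines projection neurons of the mature striatum. Its counts were 9, 4 and 3 in control, 17, 14 and 26 in HD-het and 2, 3 and 3 in HD-homo libraries. HD-het libraries lay above all others, and no library reached 1 CPM. Bcl11b was 3.37-fold higher in HD-het cells relative to control (log2 fold change 1.72 ± 0.40, SE). From its pooled counts it was 7.60-fold lower in HD-homo cells relative to HD-het, with a 95% counting interval from 3.61 to 18.4. Bcl11b passed the filter only through the HD-het libraries, and no p value is given for these 2 differences. HD-homo and control cells were not told apart, with a pooled ratio of control to HD-homo of 2.27 and an interval from 0.918 to 6.14 (edgeR adjusted p = 0.114).

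Of the factors of single pathways, Isl1 (chr13:116298281-116309689, minus strand), a LIM homeodomain protein of direct pathway neurons, had 0 reads in every library, which allows up to 0.101 CPM. Ebf1 (chr11:44617317-45008091, plus strand), a helix-loop-helix protein of the same pathway, was abundant in all lines. It was at 23.8, 24.7 and 22.2 CPM in control, 24.8, 26.6 and 40.7 in HD-het and 28.2, 25.9 and 43.3 in HD-homo libraries. Replicate 3 of each HD line stood above the other 2, and the HD-het and HD-homo libraries overlapped. Control libraries lay below those of both HD lines, by a margin smaller than the spread within the HD lines. Ebf1 did not pass the test in any comparison. The log2 difference of HD-het from control was 0.38, with a 95% interval from -0.08 to 0.84 (edgeR adjusted p = 0.132). That of HD-homo from control was 0.46 (-0.0023 to 0.92, edgeR adjusted p = 0.0808), and that of HD-homo from HD-het 0.08 (-0.38 to 0.53, edgeR adjusted p = 0.746). The comparison of HD-homo with control moved across the threshold under 4 alternatives, among them the fit without HD-homo replicate 2 (0.60, edgeR adjusted p = 0.0313) and the fit without HD-het replicate 3 (0.46, edgeR adjusted p = 0.0351).

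Six3 (chr17:85613608-85629302, plus strand), a homeodomain protein of the indirect pathway, was present at a low level in 2 lines. Its counts were 12, 13 and 10 in control, 17, 14 and 11 in HD-het and 0, 0 and 3 in HD-homo libraries. HD-homo libraries lay below all others, and control and HD-het libraries overlapped. The pooled counts were 13.3-fold lower in HD-homo cells relative to control, with a 95% counting interval from 4.18 to 67.4, and 14.9-fold lower than in HD-het cells (4.77 to 75.3). All 3 reads of the HD-homo line came from replicate 3, and without it the line had 0 reads, which can only widen these differences. HD-het did not differ from control beyond the spread, with a log2 difference of 0.17 and a 95% interval from -0.70 to 1.04 (edgeR adjusted p = 0.724). Six3 passed the filter through the control and HD-het libraries alone, and no p value is given for the 2 comparisons with HD-homo cells. Six3 exons overlap the antisense gene Six3os1 by 106 bases and Gm28528 by 168 bases. Six3os1 had 0 reads in all libraries, Gm28528 has no row in the count table, and whether the counting used strand is not stated.

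**Figure D2:**
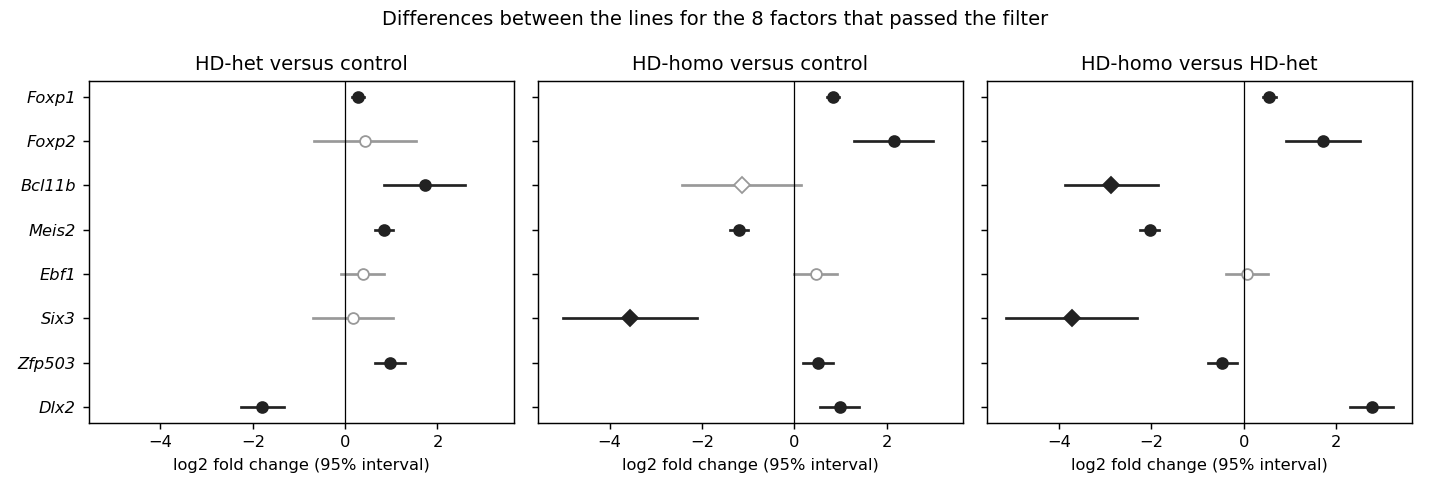
Log2 fold change of the 8 tested factors in each of the 3 comparisons, with 95% intervals from the edgeR fit. Filled points passed the threshold and open points did not, and diamonds mark fitted values against a line with at most 3 counts per library, which depend on the prior count and are no bound. Foxp2, Bcl11b and Six3 passed the filter through some lines only, so filled points of these factors are a description. Dlx2 lies at -1.80 in HD-het versus control and at 2.77 in HD-homo versus HD-het, and Meis2 at 0.84 and -2.03.

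The levels of the factors were ranked per length, as CPM per kilobase of annotated exons. This length joins the exons of all annotated transcripts of a gene and can exceed that of the mRNA present. The order between genes therefore depends on the annotation, which the overlap of libraries does not cover. In control cells the order was Foxp1 (6.82 ± 0.374, SD, n = 3), Dlx2 (5.67 ± 0.222), Meis2 (4.08 ± 0.283), Zfp503 (2.93 ± 0.183) and Ebf1 (2.42 ± 0.129), and no neighbours in this order overlapped. The scarce factors followed at 0.0672 ± 0.0046 for Six3, 0.0206 ± 0.012 for Bcl11b and 0.00571 ± 0.0016 for Foxp2. In HD-het cells Dlx2 moved to the last place of the abundant factors, with Foxp1 at 8.29 ± 0.113, Meis2 at 7.30 ± 0.126, Zfp503 at 5.77 ± 0.570, Ebf1 at 3.15 ± 0.893 and Dlx2 at 1.63 ± 0.352. Below them Six3 and Bcl11b overlapped. In HD-homo cells Foxp1 (12.2 ± 0.751) and Dlx2 (11.1 ± 3.15) overlapped, as did Zfp503 (4.19 ± 0.948) and Ebf1 (3.33 ± 0.971), and Meis2 came last of the abundant factors at 1.78 ± 0.233. By this length Foxp1 and Dlx2 were the 2 highest factors in control and HD-homo cells, and Foxp1 and Meis2 in HD-het cells.

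**Figure D3:**
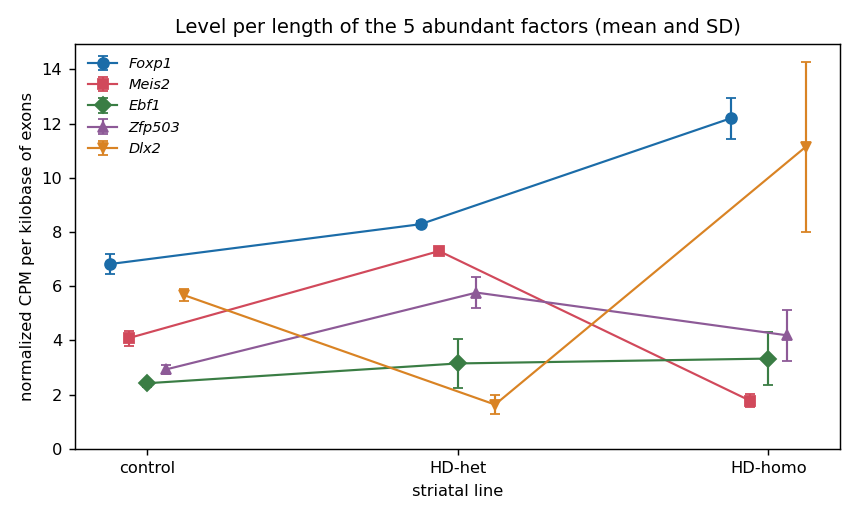
Normalized CPM per kilobase of exons, mean and SD of 3 libraries, for the 5 abundant factors in each line on a linear axis starting at 0. The lines joining the points only guide the eye. Dlx2 goes from 5.67 in control to 1.63 in HD-het and 11.1 in HD-homo cells, while Meis2 goes from 4.08 to 7.30 and 1.78.

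Related genes of the same families did not all follow the factor they are related to. Of 21 paralogues, 15 passed the filter, and 9 were called higher and 3 lower in HD-het versus control, 5 higher and 7 lower in HD-homo versus control, and 3 higher and 7 lower in HD-homo versus HD-het cells. Their median log2 fold changes were 0.57, -0.33 and 0.06, beside 0.025, 0.0077 and 0.0017 over all tested genes, and setting genes without a read in a line at their bound left these medians as they were. The shares of all tested genes called were 65.1%, 58.6% and 71.6%. Ebf2, Ebf3, Ebf4, Isl2, Gsx1 and Dlx3 passed the filter through some lines only, so that a difference was built into their entry, and these counts, medians and their calls are a description. In the Foxp family, Foxp4 was at 88.4 ± 1.85 CPM in control, 67.7 ± 1.76 in HD-het and 70.5 ± 8.12 in HD-homo cells, called lower in both HD lines where Foxp1 was called higher. In the Meis family, Meis1 (5.24 ± 0.520, 10.3 ± 2.21 and 5.24 ± 0.814 CPM) and Meis3 (3.07 ± 0.653, 8.05 ± 0.300 and 3.66 ± 0.305 CPM) were called higher in HD-het cells relative to control, as Meis2 was. Neither was called between HD-homo and control cells, where Meis2 was called lower.

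The other Ebf genes were each at few counts in at least 1 line. Ebf3 had 1, 1 and 2 counts in control, 14, 22 and 34 in HD-het and 231, 332 and 168 in HD-homo libraries, a pooled ratio of HD-homo to control of 161 with a 95% counting interval from 62.5 to 592. Since Ebf3 passed the filter only through the HD-het and HD-homo libraries, no p value is given. Ebf4 went the other way, from 1.17 ± 0.0729 CPM in control and 1.80 ± 0.199 in HD-het to 0.114 ± 0.0397 in HD-homo cells. Ebf2, which passed the filter only through control libraries, was at 0.441 ± 0.106 CPM there and at 0.0765 ± 0.0802 and 0.0775 ± 0.0578 CPM in HD-het and HD-homo cells. Among the relatives of Six3, Six4 (37.9 ± 1.10, 28.1 ± 1.32 and 10.8 ± 3.68 CPM) was called lower in HD-homo cells relative to control, where Six3 was also lower. Six2 (1.63 ± 0.211, 4.84 ± 0.307 and 14.4 ± 1.26 CPM) and Six5 (3.35 ± 0.221, 4.97 ± 0.136 and 5.37 ± 0.611 CPM) were called higher in HD-homo cells relative to control. Gsx1, the relative of Gsx2, had 3, 10 and 6 counts in control, 45, 57 and 13 in HD-het and 0 in the 3 HD-homo libraries, at least 13.4-fold lower in HD-homo cells relative to HD-het. It passed the filter only through HD-het libraries, and no p value is given. Isl2, the relative of Isl1, was at 1.23 ± 0.201, 0.948 ± 0.141 and 0.199 ± 0.0930 CPM, and its HD-homo libraries lay below all others. It passed the filter mainly through control and HD-het libraries, and no call is given. Reads of Isl2 were thus found in all 3 lines and reads of Gsx1 in control and HD-het cells, where Isl1 and Gsx2 had none.

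Dlx1 lies next to Dlx2 on chromosome 2 and is transcribed from the opposite strand. It was at 10.4 ± 0.964, 9.51 ± 0.845 and 16.1 ± 1.34 CPM, called higher in HD-homo cells relative to control (edgeR adjusted p = 0.000337) and not called between HD-het and control cells (log2 fold change -0.13, edgeR adjusted p = 0.289), where Dlx2 was 3.47-fold lower. Dlx3 was scarce, at 0.636 ± 0.238, 0.254 ± 0.0650 and 0.433 ± 0.277 CPM, and its HD-het libraries lay below all control ones. It passed the filter through some libraries only, and no call is given. Counts of a factor were divided by those of a relative within each library, to compare libraries and not the levels of the 2 genes, which differ in length. The ratio of Dlx2 to Dlx1 counts was 1.69, 1.34 and 1.66 in control, 0.470, 0.435 and 0.554 in HD-het and 1.47, 2.01 and 2.41 in HD-homo libraries. The HD-het ratios lay below all others, and the control and HD-homo ratios overlapped. Ratios of this kind were computed for Dlx2 over Dlx1, Meis2 over Meis1, Foxp1 over Foxp4 and Zfp503 over Zfp703, pairs chosen after the values were seen, in 12 comparisons. The exact two-sided permutation test with 3 against 3 libraries cannot go below 0.1, which it reached for Dlx2 over Dlx1 between HD-het and either other line (0.133 after Benjamini-Hochberg adjustment over the 12), and control against HD-homo gave p = 0.3 (0.36 adjusted). Meis2 over Meis1 lay between 7.98 and 10.8 in control, between 6.89 and 9.69 in HD-het and between 3.39 and 4.96 in HD-homo libraries, lower in HD-homo than in all others. Foxp1 over Foxp4 did not overlap between the lines, with 0.984 to 1.13 in control, 1.63 to 1.71 in HD-het and 2.08 to 2.63 in HD-homo libraries. Zfp503 over Zfp703 ran from 0.1286 to 0.1409 in control, from 0.2015 to 0.2497 in HD-het and from 0.1188 to 0.2008 in HD-homo libraries. Zfp703 was at 92.2 ± 3.43, 111 ± 4.49 and 115 ± 7.58 CPM, called higher in both HD lines than in control cells.

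**Figure D4:**
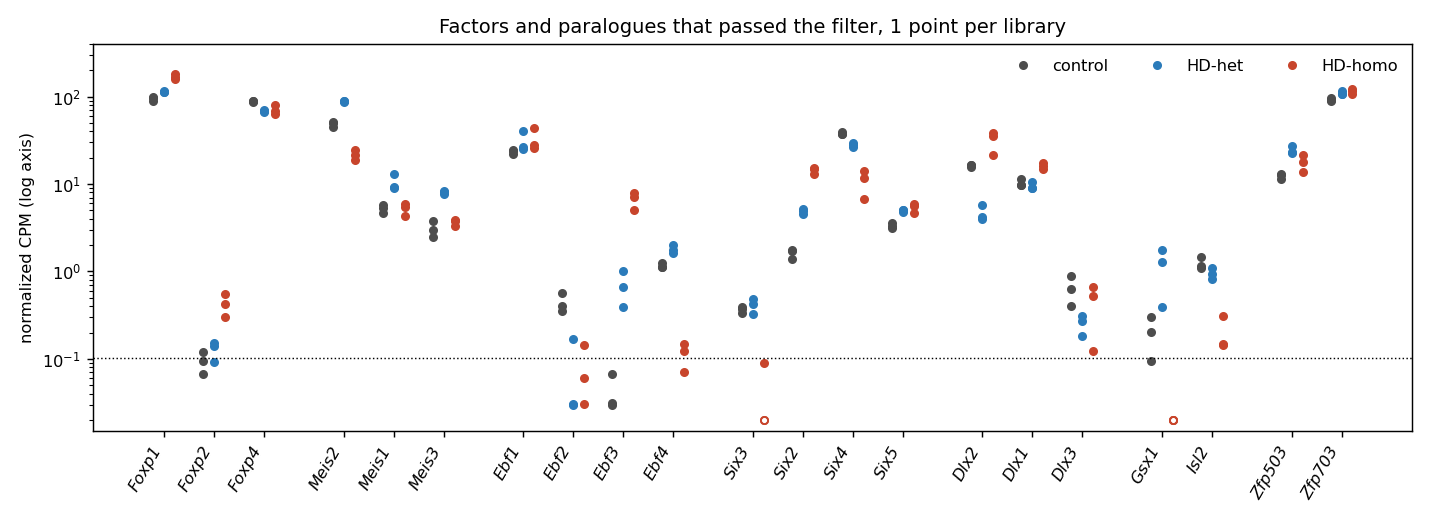
Normalized CPM on a log axis of factors and of paralogues that passed the filter, leaving out Bcl11b, whose paralogue did not pass, with 1 point per library coloured by line. The dotted line is the highest floor of 0.101 CPM, and hollow points at the foot of the axis stand for libraries with 0 reads. Ebf3 climbs from below the floor in control to a mean of 6.65 CPM in HD-homo cells, while Gsx1 falls to 0 there.

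Other factors of the striatum and lateral ganglionic eminence were read beside the 10. Of 26 listed genes 18 were tested, and 10 were called higher and 4 lower in HD-het versus control, 3 higher and 10 lower in HD-homo versus control, and 1 higher and 13 lower in HD-homo versus HD-het cells. Of all tested genes, 65.1%, 58.6% and 71.6% were called in these comparisons, in either direction. The median log2 fold changes were 0.36, -0.67 and -1.02. Pax6, a factor of the boundary between pallium and subpallium, had 1019, 1067 and 969 counts in control, 1675, 1565 and 1655 in HD-het and 5, 4 and 5 in HD-homo libraries, 242-fold lower in HD-homo cells relative to control. Sox11, a factor of young neurons, was 94.2-fold lower there (edgeR adjusted p = 7.82e-12), and Etv1 had 47, 54 and 48 counts in control and 0, 3 and 0 in HD-homo libraries. Pax6 and Etv1 passed the filter through control and HD-het libraries alone, so that a difference was built into their entry. No p value is given for them, and the counts called and medians of this list are a description. Among the called increases in HD-homo versus control cells, Egr1, an immediate early gene, was 2.01-fold higher and Pbx3, a partner of MEIS proteins, 1.17-fold higher.

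Of 18 factors of the medial eminence and cortex, 5 passed the filter. In HD-het versus control cells 3 were called higher and 2 lower, in HD-homo versus control 2 and 2, and in HD-homo versus HD-het 3 and 1, with medians of 0.23, 0.097 and 0.30. The shares called over all tested genes were 65.1%, 58.6% and 71.6%. Lhx2, a patterning factor of the cortex, was at 52.2 ± 0.873, 112 ± 1.50 and 3.45 ± 0.321 CPM. Zic1 was at 0.673 ± 0.185, 1.51 ± 0.364 and 26.6 ± 1.38 CPM, and Emx2 at 17.7 ± 1.24, 20.8 ± 0.865 and 25.6 ± 2.16 CPM. Transcripts of these 3 factors were found in all 3 lines beside those of the striatal ones.

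Marker genes of other cell types also differed between the lines, and within a list not all in the same direction. The 13 mesenchymal markers, of which 12 were over the floor in each line, summed to between 9185 and 11642 CPM in control, between 24272 and 26409 in HD-het and between 12575 and 14052 in HD-homo libraries, and Fn1 and Col1a1 made up the most of each sum. Of the 12 tested, 7 were called higher and 4 lower in HD-het versus control, 8 and 2 in HD-homo versus control and 6 and 6 in HD-homo versus HD-het cells. Beside this, 65.1%, 58.6% and 71.6% of all tested genes were called. The collagen gene Col1a2 was at 73.4 ± 6.19, 3.15 ± 0.424 and 1494 ± 75.0 CPM and the receptor gene Pdgfra at 5.21 ± 0.880, 4.38 ± 0.777 and 307 ± 5.22 CPM, both highest in HD-homo cells. Acta2, a smooth muscle actin, went the other way, at 2271 ± 186, 5290 ± 354 and 91.8 ± 30.5 CPM. The 9 neural progenitor markers summed to between 5985 and 6423, between 5424 and 5908 and between 4230 and 4634 CPM, mostly Vim, while Nes had means of 526, 840 and 28.4 CPM and Sox2 means of 128, 82.9 and 5.48 CPM in the 3 lines in that order. Nes stood in the order of Meis2, highest in HD-het and lowest in HD-homo cells. Acta2 and Lhx2 stood in the same order, so it was not particular to progenitor markers. The 10 neuron markers summed to between 143 and 174, between 109 and 116 and between 91.9 and 116 CPM, with the most counts on Map2 and Stmn2 in control and on Map2 and Tubb3 in the HD lines, and Rbfox3, Snap25, Syt1 and Dcx were under the floor in every line. Of 5 astrocyte markers 1 was tested, Slc1a3, at 2.24 ± 0.179, 0.644 ± 0.330 and 14.6 ± 2.76 CPM. Gfap was at 0.169 ± 0.0445, 0.148 ± 0.0321 and 0.0380 ± 0.0191 CPM, under the floor in HD-homo cells, as were Aqp4, S100b and Aldh1l1, and the list summed to at most 2.67, 1.23 and 17.8 CPM in the 3 lines. Of 6 microglia markers 2 were tested, Tmem119, at 13.1 ± 1.91, 45.9 ± 4.89 and 11.5 ± 0.779 CPM, and Csf1r, which was highest in HD-homo cells, at 0.544 ± 0.128, 0.666 ± 0.0913 and 2.04 ± 0.368 CPM. Aif1 had 0 reads in all libraries, and the list summed to at most 15.6, 52.8 and 14.5 CPM. Oligodendrocyte and endothelial markers stayed at or under 2.83 CPM in all libraries. The part of such differences in the levels of the factors was not tested.

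**Figure D5:**
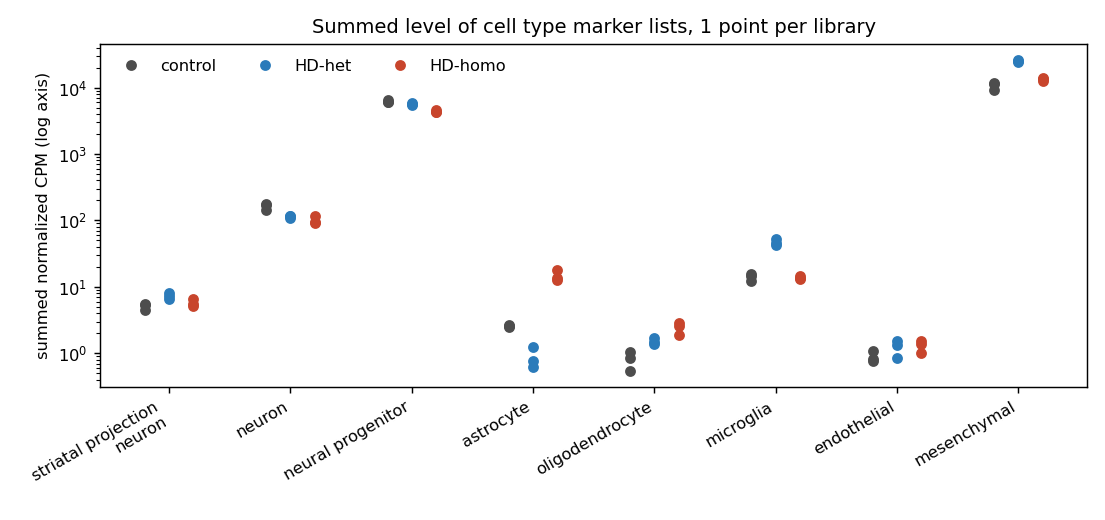
Summed normalized CPM of 8 marker lists on a log axis, with 1 point per library coloured by line. Mesenchymal and progenitor lists lie at 4230 CPM or above in every library, and the list of striatal projection neuron markers lies between 4.50 and 8.05 CPM.

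Genes outside all lists whose profile over the 9 libraries was most like that of each tested factor were found by the distance between centred log2 CPM, with a pseudocount of 0.5 that flattens scarce genes, among 11933 genes with a mean of at least 1 CPM. Foxp1 was closest to Mcm8 (distance 0.17) and Pnpla7 (0.193), and Meis2 to Spsb4 (0.286) and Adora1 (0.374). Zfp503 was closest to Timp1 (0.276) and Dfna5 (0.324), Ebf1 to Cox18 (0.453) and Ehd3 (0.458), and Dlx2 to Smpd3 (0.64) and Ly6c1 (0.645). Smpd3 was at 1.46 ± 0.195, 0.196 ± 0.0643 and 3.44 ± 1.66 CPM and so had the low HD-het and high HD-homo level of Dlx2. The closest to the scarce factors were Hmgn2 (0.195) and Igf2bp1 (0.199) for Foxp2, Ldlrad3 (0.294) and Zfp961 (0.302) for Bcl11b, and Zswim9 (0.214) and Pam (0.219) for Six3.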

How the data were processed

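Poly(A) RNA from 9 libraries, 3 for each of the control, HD-het and HD-homo lines, was sequenced by the authors from a directional kit, and whole-number counts per gene symbol were deposited without normalization. The submitters' processing notes name cutadapt, Bowtie 1.1.2, RSEM 1.3.0, DESeq2 and the builds GRCm38.p5 and mm10, with no role or order. The strand setting, and whether estimated counts were rounded, are not given in the sources used here. Of the 36410 symbols, 26 are dates and were kept.

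The tests used edgeR 4.0.16 under R 4.3.3 (filterByExpr, minimum count 10, which left 13508 genes, TMM, and a quasi-likelihood fit with 1 mean per line over 9 libraries). Two-sided p values of each comparison were adjusted by the Benjamini-Hochberg method, with a threshold of 0.05. SE are from the F statistic. Fold changes are ratios of mean normalized CPM. Against a line with 1 to 3 counts per library the pooled ratio is given with an exact 95% binomial counting interval, and against a line with 0 reads a bound at 3 counts per library. Totals ran from 29507665 to 41197931. Intervals and floors cover counting error only, since reads are not independent molecules.

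The 10 factors and all gene lists were chosen with earlier results of these data known. Named are all factors, the tested paralogues, and from each other factor list the 3 largest called changes in each direction in HD-homo versus control cells. Some genes that this rule names are not reported here. Of marker lists, the 2 highest genes and other markers are named, the latter chosen after their values were seen. Alternatives were other scalings, filters, prior count and samples, thinning, and DESeq2 1.42.0. On simulated data for HD-homo versus control with 13311 genes tested, 189 of 196 genes changed 4-fold were recovered and 5.5% of 200 calls were false. In the data 58.6% of tested genes were called in this comparison. The simulation does not cover such a case, nor changes smaller than 4-fold. Gene positions and exon lengths come from GENCODE on GRCm38 and sequences from RefSeq on GRCm38.p6.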

Additional observations from a re-analysis of the deposited data

How the results depend on the processing

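Over 24 log2 fold changes of the 8 tested factors and 423 refits, 416 kept their direction and their side of the threshold, 0 called values lost it, 4 passed it and 3 changed sign. Refits of Foxp2, Bcl11b and Six3, which passed the filter through some lines only, are a description and no independent support. A prior count of 2 moves the fitted fold change and not the p value. The 4 that passed the threshold and the 3 that changed sign all concerned Ebf1. HD-homo versus control passed with the Wald test of DESeq2 (adjusted p = 0.0481) and without HD-het replicate 3 (0.0351) or HD-homo replicate 2 (0.0313), and over all alternatives its adjusted p ran from 0.0313 to 0.374. HD-homo versus HD-het changed sign without HD-het replicate 1 (-0.05), HD-het replicate 2 (-0.01) or HD-homo replicate 3 (-0.19), ran up to 0.33 without HD-het replicate 3, and was past the threshold in none. The cause was not tested. With at least 10 counts in every library, 5 factors were tested and 4 called in HD-homo versus HD-het cells, since the scarce factors drop out. Leaving out each library in turn gave 5 to 5, 6 to 7 and 7 to 7 factors called in HD-het versus control, HD-homo versus control and HD-homo versus HD-het cells, and 7833 to 9139, 6767 to 7997 and 8913 to 9562 genes in all. The fitted log2 fold change of Six3 was -3.56 in HD-homo versus control and -3.73 in HD-homo versus HD-het cells. It moved to -6.65 and -6.83 without HD-homo replicate 3 and to -2.29 and -2.44 with a prior count of 2. Depth limits Isl1, Gsx2, Foxp2, Bcl11b and Six3, for which small differences cannot be shown.

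Replicate numbers are shared by the lines, and nothing in the labels says that they mark a batch or day. Same-numbered libraries correlated by 0.0226 to 0.245 in their deviations from the line means, not over 0.1 in every pair, and so were not treated as paired. Each correlated best with its own number except HD-homo replicate 1 with HD-het (0.0322, against 0.0342 for another number). With the replicate block 5, 7 and 7 factors were called, in place of 5, 6 and 7, and 9160, 8372 and 9938 genes, in place of 8797, 7910 and 9666. The added factor was Ebf1 (adjusted p = 0.0467).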
